A study of Mus musculus with 4 samples.

Results

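The AP-1 and immediate early genes described here are 10 of the 32285 genes in the count tables. They are Fos, Fosb, Fosl1 and Fosl2 of the FOS family, Jun, Junb and Jund of the JUN family, and Egr1, Ier2 and Ier3. They were chosen by symbol after the direction of their difference between EV and vehicle cultures had been seen in germ cells and in feeder cells. That difference is therefore given as a description, with no test.

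FOS and JUN proteins pair through leucine zippers to form AP-1, a transcription factor that acts downstream of MAP kinases. Their genes, like Egr1 and the IER genes, are immediate early genes: growth factors, stress or enzymatic dissociation of cells can switch them on within minutes without new protein synthesis, and their short-lived mRNAs then decay. Spermatogonia in culture depend on growth factors that signal through MAP kinases, and fibroblasts are a classic system in which the immediate early response has been studied.

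Primary spermatogonial cultures were started from 3 male mice at postnatal day 6 by magnetic sorting of Thy1+ cells, and were grown on STO cells, a mouse embryonic fibroblast line that serves as the feeder layer in every group. Vehicle cultures received PBS, and EV cultures received extracellular vesicles (EVs) isolated from testes of postnatal day 7 mice, at 1 µg/mL, both for 3 days. The labels give no strain, and the cultures were dissociated to single cells before capture. Single-cell RNA was counted as unique molecular identifiers (UMIs) with 10x chemistry, and counts were analysed for vehicle 1, vehicle 2 and EV 1. For EV 2 only the cell barcodes were used, so each EV value below is that of 1 library. No value below gives the spread between EV cultures. The replicates are labelled as biological, and the sources describe 1 establishment of cultures from 3 mice without saying which mice or cultures gave which library. The spread between libraries, and every p-value resting on it, may therefore be partly technical.

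The 3 libraries held 10793232 to 27444797 UMIs, and 4779 to 8637 cells were kept per library. A cell was called germ when it had at least 2 UMIs of Dazl, Tex15, Stk31 and Epcam together and more of these than of Col1a1, Col1a2, Sparc and Dcn, and feeder when the reverse held. EV 1 stood apart from the others. It held 226 germ cells (4.73% of kept cells) against 4411 (53.4%) and 4765 (55.2%) in vehicle 1 and 2, and its germ cells had a median of 1325 UMIs against 1941 and 2089. Feeder cells numbered 2355, 2490 and 2507. Any 2 of the 4 barcode lists, EV 2 included, shared 11 to 22 barcodes.

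The class names were checked with markers that the rule did not use. Over 10 further germ markers, led by Ddx4, germ cells had 817 to 835 CPM (UMIs of a gene or list for every 1000000 UMIs of the same class and library) and feeder cells 8.56 to 32.9. Over 15 further fibroblast markers, led by Fn1, feeder cells had 1813 to 1890 and germ cells 244 in vehicle 1, 227 in vehicle 2 and 361 in EV 1. These fibroblast markers therefore stood in germ cells at 13.4%, 12.0% and 19.6% of their feeder level, and each member is set beside these shares below. The share differed widely between single markers, so it is not the carry-over of 1 source alone. Among the markers with at least 100 UMIs in feeder cells it ran from 3.33% to 57.9% in vehicle 1 and from 3.30% to 60.3% in vehicle 2, lowest for Col5a2 and highest for Col5a1, with medians of 10.3% and 10.0%. In EV 1 it ran from 0% to 49.3%, with a median of 15.6%. Markers under that cut in the vehicle libraries also count in the joint shares. Of these, Fbn1 stood in germ cells at 164% and 149% of its feeder level, Loxl2 at 489% and 708%, and Postn at 35.1% and 58.1%. In the other direction germ markers stood in feeder cells at 4.03%, 3.16% and 1.04%. Dppa3, Pdgfrb and Mmp2 were at 0 in germ cells of EV 1, and Lum was at 0 in germ cells of all 3 libraries.

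Other testis cells gave little signal. Of 8 Sertoli markers, Sox9 made up nearly all of the 283 to 305 CPM in feeder cells, and in germ cells the list summed to 48.9 to 80.2, with Amh at 0 in every library. The Leydig list summed to at most 9.17 in any class and library, and Star led it. The lists for peritubular myoid cells (12.0 to 33.5), macrophages (6.77 to 23.0) and endothelial cells (47.3 to 80.2) were led by Des or Cnn1, Cd68 and Egfl7. C1qa and Adgre1, defining macrophage genes, were at 0 in germ cells of all 3 libraries. In feeder cells Adgre1 had UMIs in all 3 libraries, and C1qa had UMIs in vehicle 1 only. Cd68 stood at 17.9 CPM in feeder cells of EV 1 against 6.49 ± 0.308 (SD) in vehicle, while Lyz2 stood at 2.21 against 4.49 ± 2.70. The part of these cells in any value below was not tested.

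The sequences just before the starts of Fos, Fosb, Jun and Ier3 are shown because, among the members with a sequence here, Fos and Fosb were lowest against vehicle in feeder cells, Ier3 was highest, and Jun had the largest difference between the classes outside the FOS family. They are the 250 bases upstream of the RefSeq start (GRCm38.p6), 5′ to 3′ on the gene's strand, at chr12:85473640-85473889 (Fos, plus strand), chr7:19310046-19310295 (Fosb, minus strand), chr4:95052223-95052472 (Jun, minus strand) and chr17:35821463-35821712 (Ier3, plus strand). The gene positions given further below come from another annotation, in which Fosb starts at 19310051 and Ier3 at 35821684. By those starts the windows of Fosb and Ier3 reach into the gene. Capitals mark every match to the motifs searched on both strands, namely TGACG (the core of a cAMP response element), TGANTCA (the classic AP-1 site), TGANNTCA (the longer AP-1 site), TATAAA (the TATA box), CCAAT (the CCAAT box) and the CArG box, which serum response factor binds.
Fos: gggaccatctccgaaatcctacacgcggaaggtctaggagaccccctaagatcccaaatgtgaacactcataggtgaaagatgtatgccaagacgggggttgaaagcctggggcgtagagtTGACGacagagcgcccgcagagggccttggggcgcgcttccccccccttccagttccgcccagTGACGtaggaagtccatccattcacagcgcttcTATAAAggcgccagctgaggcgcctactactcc
Fosb: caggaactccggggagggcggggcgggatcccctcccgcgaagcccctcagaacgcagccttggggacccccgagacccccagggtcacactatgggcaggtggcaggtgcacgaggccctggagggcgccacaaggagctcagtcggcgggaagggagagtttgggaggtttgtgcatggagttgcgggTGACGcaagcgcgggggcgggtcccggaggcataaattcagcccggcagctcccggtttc
Jun: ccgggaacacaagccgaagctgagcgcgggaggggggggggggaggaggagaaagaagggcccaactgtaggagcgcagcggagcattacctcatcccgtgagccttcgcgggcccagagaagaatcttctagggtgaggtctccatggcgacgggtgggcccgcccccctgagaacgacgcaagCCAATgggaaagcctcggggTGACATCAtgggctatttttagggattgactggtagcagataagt
Ier3: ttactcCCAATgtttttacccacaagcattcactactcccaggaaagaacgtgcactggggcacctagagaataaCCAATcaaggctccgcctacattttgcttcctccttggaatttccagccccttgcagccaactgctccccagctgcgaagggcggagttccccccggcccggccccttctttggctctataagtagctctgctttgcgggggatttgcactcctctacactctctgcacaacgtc

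TGACG occurred in the Fos window at 129 to 125 and 66 to 62 bases before the start, and in the Fosb window at 60 to 56. It was found in 17.8% of all 32851 RefSeq windows of this length. The Jun window held TGACATCA, a match to TGANNTCA, at 45 to 38 bases before the start, and 11.9% of all windows hold that motif. The Ier3 window held neither AP-1 motif (TGANTCA occurs in 6.75% of windows) and 2 copies of CCAAT, a motif found in 33.8%. TATAAA stood at 33 to 28 bases before the start of Fos, and is in 12.4% of windows. No window of the 7 members with a sequence matched the CArG box (1.47% of windows), which says only that these letters are not in these windows.

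The overview of all 10 genes is as follows. In germ cells, 8 of 10 members stood above both vehicle libraries in EV 1 and 2 stood below both, beside 44.9% and 46.9% of all 13363 genes with at least 50 UMIs in germ cells. By the mean of the vehicle libraries, 4 members were over 2-fold higher and 0 were over 2-fold lower. Of the same genes, 11.5% were over 2-fold higher and 7.03% (939 genes) over 2-fold lower, and 521 of those 939 had 0 UMIs in the germ cells of EV 1. The members' median log2 ratio was 0.72, and that of all genes was 0.09. The mix of germ cells moved with these values: 54.9% of germ cells in EV 1 had no UMI of Mki67 or Top2a, markers of cycling cells, against 32.6% and 31.4% in vehicle 1 and 2, and Mki67 and Top2a stood at 0.613 and 0.718 of their vehicle level. The part of this mix in the germ values below was not tested.

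In feeder cells more members lay below both vehicle libraries than above both, and the same held for all genes. In EV 1, 3 of 10 members stood above both vehicle libraries and 7 below both, beside 29.7% and 57% of 12897 genes. Over 2-fold, 1 was higher and 3 were lower, beside 2.37% and 5% of the same genes. The median log2 ratio of the members was -0.32, and that of all genes was -0.13. In both classes the 2 vehicle libraries differed from each other by at most 0.18 on the log2 scale for any member.

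Over all kept cells, without classes, 2 members were over 2-fold higher in EV 1 and 4 over 2-fold lower, beside 8.28% and 21.2% of 16301 genes. Their median log2 ratio there was 0.13. A value over all cells mixes the classes: Jun stood at 366 CPM in EV 1 against 244 ± 10.2 (SD, n = 2 libraries) in vehicle over all cells, though in feeder cells, where most of its UMIs lay, it was lower in EV 1. The share of germ cells, 4.73% against 53.4% and 55.2%, moved with this. So did the share of cells in neither class, 42.8% against 18.1% and 16.0%. In those cells Jun stood at 351 CPM in EV 1 against 200 and 216 in vehicle 1 and 2. The part of either share in the value of Jun over all cells was not tested.

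**Figure D1:**
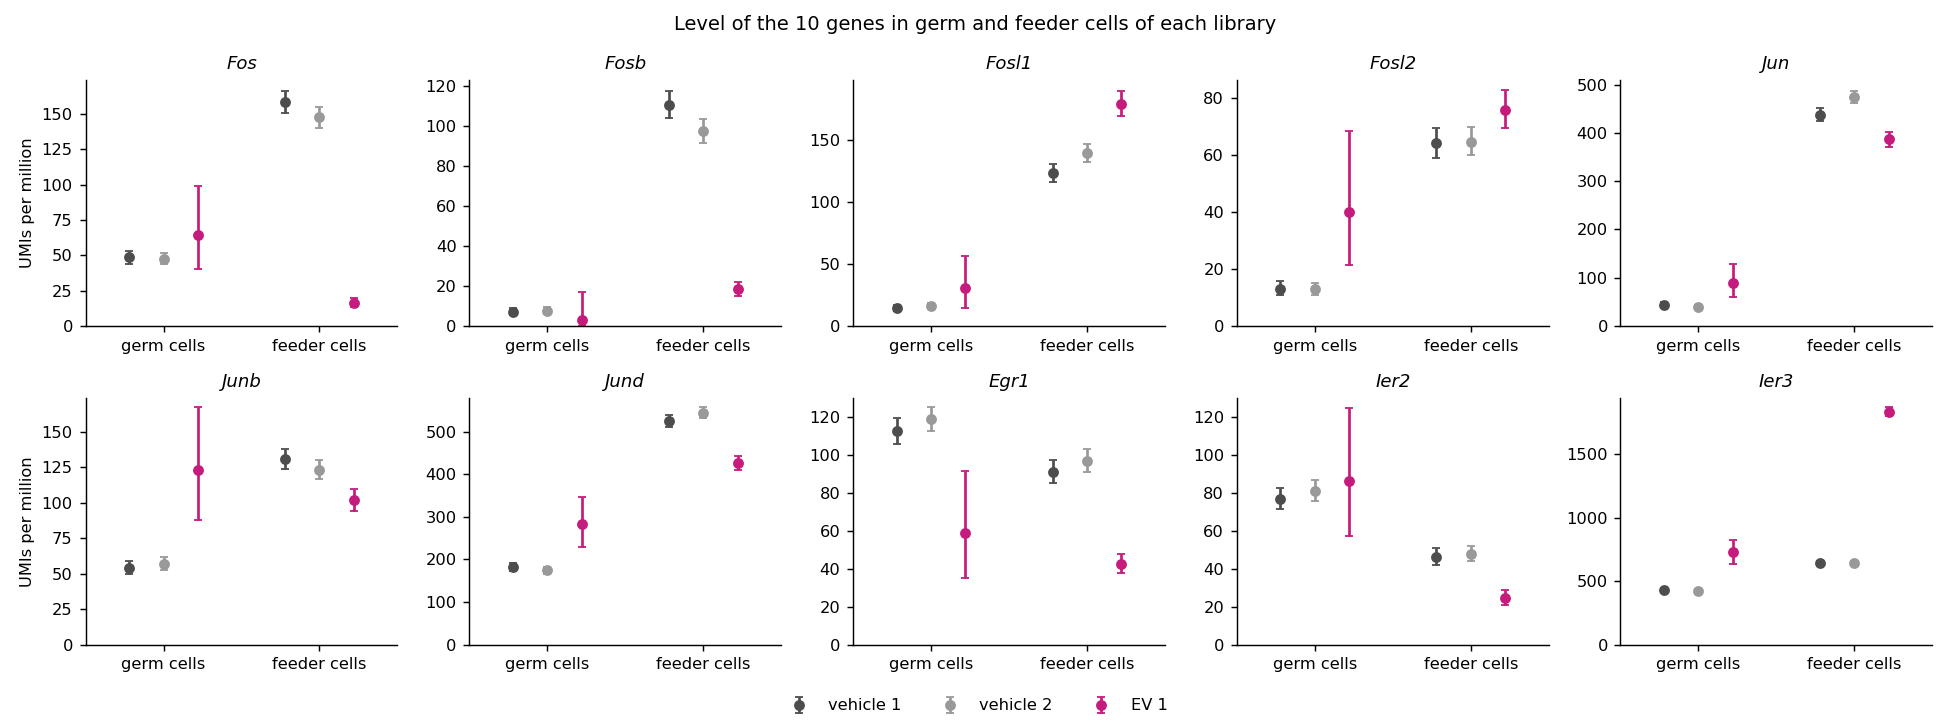
Level of each gene (CPM, UMIs for every 1000000 of the class and library, linear axis from 0) in germ and feeder cells of vehicle 1, vehicle 2 and EV 1; bars are exact 95% Poisson intervals, which cover counting error only. The 2 vehicle libraries lie close together in every panel, and the EV 1 intervals in germ cells are wide because 226 cells stand behind them.

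Germ and feeder cells were then compared within libraries, a difference that did not serve to choose the genes. By edgeR's quasi-likelihood test on the 6 class sums with the library as a term, 8 of 10 members were higher in feeder cells, 1 (Ier2) was higher in germ cells, and Egr1 was not called. Over all 15653 genes tested, 41.7% were called higher in feeder cells and 40.1% higher in germ cells, so most genes differ between the classes. TMM scaling, the main scaling of the test, lowers the germ-minus-feeder log2 value by 0.35, 0.35 and 0.73 against CPM in vehicle 1, vehicle 2 and EV 1, and the levels below are on the CPM scale while fitted log2 values are on the TMM scale.

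FOS proteins bind DNA as dimers, mostly with JUN proteins. Fos (chr12:85473890-85477273, plus strand, 4 exons) had 159, 148 and 16.5 CPM in feeder cells of vehicle 1, vehicle 2 and EV 1. EV 1 thus stood far below both vehicle libraries, at 0.108 of their pooled level (95% counting interval 0.0889 to 0.131), a 9.24-fold lower value and lower than the ratio of all but 0.132% of the genes compared. In germ cells Fos had 48.5, 47.7 and 64.8. EV 1 was nominally the highest of the 3, but its value rests on 21 UMIs and the interval of the ratio, 0.829 to 2.07, includes 1. When the feeder level times the fibroblast-marker share was subtracted from the germ level, the germ log2 ratio of Fos was 1.14 instead of 0.46, past 2-fold.

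Fos was higher in feeder than in germ cells of both vehicle libraries and lower in feeder cells of EV 1. The germ-to-feeder ratio was 0.306 (0.275 to 0.340) in vehicle 1, 0.323 (0.292 to 0.357) in vehicle 2 and 3.92 (2.33 to 6.28) in EV 1. edgeR called the gene higher in feeder cells (log2 -1.87 ± 0.21 SE, adjusted p = 2.5e-08), although 1 of the 3 libraries went the opposite way. DESeq2 with the same terms did not call it (log2 -1.08, adjusted p = 0.32), and edgeR gave log2 -2.06 without EV 1, -0.97 without vehicle 1 and -1.04 without vehicle 2. The direction of the call is that of the vehicle cultures, and the SE of 0.21 does not cover these shifts.

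Fosb (chr7:19302696-19310051, minus strand), a close relative of Fos, was mostly seen in feeder cells. It had 110, 97.2 and 18.3 CPM in feeder cells, so that EV 1 was 5.64-fold lower (ratio 0.177, interval 0.147 to 0.212). In germ cells it had 7.19, 7.47 and 3.08, the last from 1 UMI. These germ levels are 6.52% and 7.69% of the feeder level in the vehicle libraries, below the 13.4% and 12.0% at which fibroblast markers together stood in germ cells. Feeder RNA and low expression in germ cells cannot be told apart at these levels. edgeR gave log2 -4.16 ± 0.12 (SE), with an adjusted p of 9.1e-18.

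Fosl1 (chr19:5447547-5455946, plus strand), which encodes FRA-1, a FOS protein without the long transactivation domain of FOS, moved apart from Fos and Fosb in feeder cells. It had 123, 139 and 179 CPM there, with EV 1 highest (ratio 1.36, interval 1.27 to 1.46). In germ cells it had 14.4, 16.0 and 30.8, or 11.7%, 11.5% and 17.2% of the feeder levels. These do not exceed the joint fibroblast-marker shares of 13.4%, 12.0% and 19.6%, but lie above the single-marker medians of 10.3%, 10.0% and 15.6%. Feeder RNA and low expression thus cannot be told apart here either. The interval of the germ ratio of 2.02, 0.959 to 3.76, includes 1. The gene was higher in feeder cells by edgeR (log2 -3.45 ± 0.14 SE, adjusted p = 1.2e-15). It overlaps Ccdc85b on the opposite strand.

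Fosl2 (chr5:32135801-32157842, plus strand), which encodes FRA-2, had 64.2, 64.8 and 76.0 CPM in feeder cells, and EV 1 was again the highest (ratio 1.18, interval 1.06 to 1.31). In germ cells it had 13.1, 12.8 and 40.1. EV 1 stood 3.09-fold above the vehicle libraries (interval 1.62 to 5.38), from 13 UMIs. The germ levels were 20.4%, 19.8% and 52.7% of the feeder levels, above the joint fibroblast-marker shares, and edgeR called the gene higher in feeder cells (log2 -2.61 ± 0.12 SE, adjusted p = 4.1e-15).

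With a stricter germ rule (at least 4 germ-marker UMIs and no feeder-marker UMI) the germ log2 ratio of Fosl2 was 0.17 instead of 1.68, and 70 germ cells of EV 1 remained. With the subtraction used for Fos it was 2.47. The stricter rule gave a higher germ log2 ratio for Fosl1 (1.58 instead of 1.09) and Fos (0.51 instead of 0.46). The EV 1 level of Fosl2 in germ cells came mostly from cells without a UMI of Mki67 or Top2a (71.3 from 11 UMIs, against 11.8 from 2 UMIs in cells with one).

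The JUN genes encode the partners of FOS proteins, and JUN proteins can also pair with each other. Jun (chr4:95049034-95052222, minus strand, 1 exon) had 437, 474 and 386 CPM in feeder cells, with EV 1 lowest (ratio 0.845, interval 0.809 to 0.883). In germ cells it had 44.3, 39.2 and 89.4, with EV 1 highest (ratio 2.15, interval 1.43 to 3.11). The germ levels of the vehicle libraries, 10.1% and 8.26% of the feeder levels, lay below the joint fibroblast-marker shares and above those of single markers such as Col3a1 (5.72% and 4.46%), so how much of them is feeder RNA cannot be told. In EV 1 the germ level was 0.231 of the feeder level (0.155 to 0.333), an interval that includes the joint fibroblast-marker share of 19.6%. With the stricter germ rule the germ log2 ratio of Jun was 0.70 instead of 1.12, under 2-fold. The higher Jun level in germ cells of EV 1 thus moved with higher fibroblast markers in the same cells, and their part in it was not tested. Jun overlaps Junos, an antisense gene.

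Junb and Jund stood in germ cells above the joint fibroblast-marker shares. Junb (chr8:84974484-84978718, minus strand), often a weaker activator than Jun, had 54.4, 56.8 and 123 CPM in germ cells, so EV 1 was 2.21-fold higher (interval 1.57 to 3.03, 40 UMIs). With the stricter germ rule its germ log2 ratio was 0.78 instead of 1.17, under 2-fold, and with the subtraction used for Fos it was 1.41. In feeder cells it had 131, 123 and 102, with EV 1 lowest (ratio 0.802, interval 0.736 to 0.873). In the vehicle libraries germ cells had 41.5% and 46.1% of the feeder level. In EV 1 the germ level was nominally above the feeder level, with an interval that includes 1 (ratio 1.21, interval 0.858 to 1.67).

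Jund (chr8:70698949-70700616, plus strand, 1 exon), the JUN gene that many resting cells express steadily, had 182, 174 and 284 CPM in germ cells and 526, 546 and 427 in feeder cells. EV 1 was above both vehicle libraries in germ cells (ratio 1.59, interval 1.28 to 1.96) and below both in feeder cells (ratio 0.796, interval 0.764 to 0.829). Germ cells had 34.6%, 31.9% and 66.5% of the feeder level. All 3 JUN genes were called higher in feeder cells by edgeR, with log2 -3.64 ± 0.19 for Jun, -1.39 ± 0.15 for Junb and -1.78 ± 0.16 for Jund (SE), and adjusted p of 5.9e-14, 1.7e-08 and 8.7e-10. Junb overlaps Prdx2 and Jund overlaps Gm11175, both on the opposite strand.

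**Figure D2:**
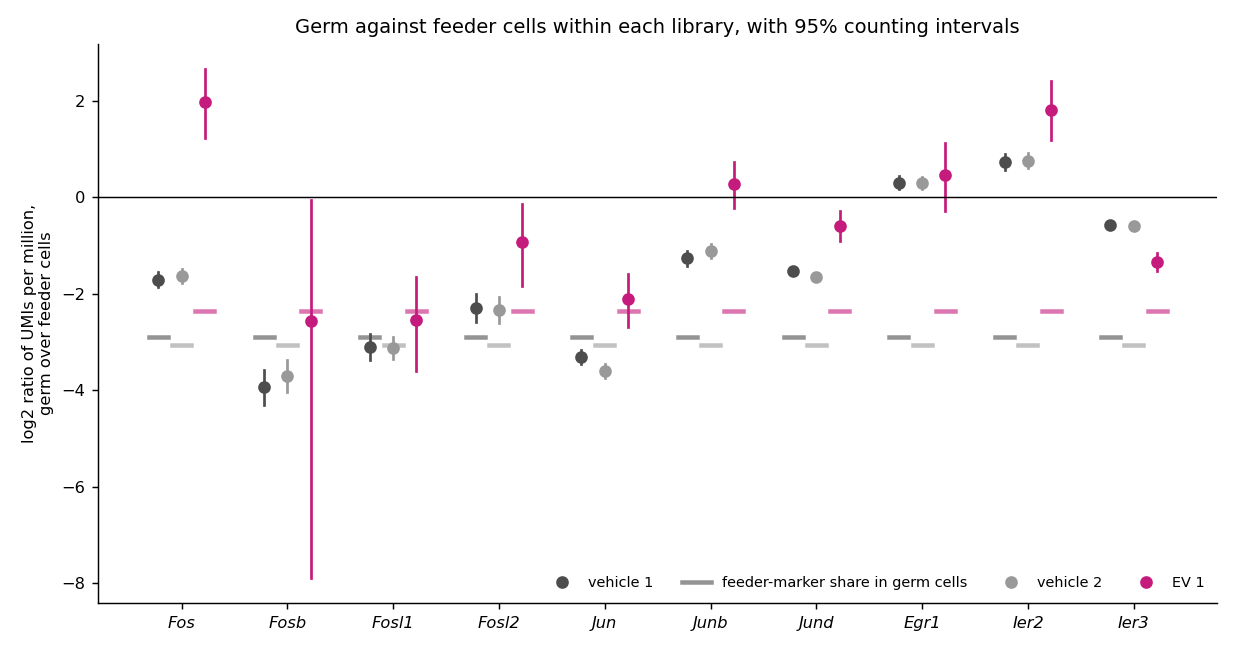
Ratio of each gene's level in germ cells to that in feeder cells of the same library (log2 axis), with 95% counting intervals; short horizontal bars mark the share of the feeder level at which 15 fibroblast markers stood in germ cells. Fosb, Fosl1 and Jun lie at or under those bars in the vehicle libraries, though single markers with at least 100 feeder UMIs ran from 3.30% to 60.3% there. Egr1 and Ier2 lie above 0 in all 3 libraries, and Fos is above 0 in EV 1 only.

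Egr1, Ier2 and Ier3 do not encode AP-1 subunits. Egr1 (chr18:34859823-34864984, plus strand, 2 exons), a zinc finger transcription factor induced by MAP kinase signalling, was lower in EV 1 in both classes. It had 112, 119 and 58.6 CPM in germ cells (ratio 0.506, interval 0.304 to 0.792, 19 UMIs in EV 1) and 91.2, 96.9 and 42.7 in feeder cells (ratio 0.453, interval 0.399 to 0.513). Among the 10 members it was the only one below both vehicle libraries in both classes with both intervals under 1.

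On the CPM scale Egr1 was higher in germ than in feeder cells of each library, with ratios of 1.23 (1.13 to 1.35), 1.23 (1.13 to 1.33) and 1.37 (0.815 to 2.18). The TMM-scaled test turned this direction and did not call it (edgeR log2 -0.07 ± 0.11 SE, adjusted p = 0.56). Scaled by total UMIs alone, a setting added after the data had been seen, edgeR called it higher in germ cells (log2 0.30, adjusted p = 2.3e-04). With the stricter class rule and TMM scaling it was called higher in feeder cells (log2 -0.22, adjusted p = 0.012). No direction is therefore given for Egr1 between the classes.

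Ier2 (chr8:84661331-84662852, minus strand, 1 exon), a nuclear protein gene of the early response, was the member with a higher level in germ cells. It had 76.9, 81.2 and 86.3 CPM in germ cells and 46.3, 47.9 and 24.5 in feeder cells. edgeR gave a log2 difference of 0.44 ± 0.09 (SE, adjusted p = 2.3e-04), and all 3 libraries had this direction, with CPM ratios of 1.66, 1.69 and 3.52. EV 1 was 1.92-fold lower in feeder cells (ratio 0.520, interval 0.438 to 0.613). In germ cells the ratio of 1.09 had an interval of 0.722 to 1.58.

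Ier3 (chr17:35821684-35822923, plus strand, 2 exons), which encodes a regulator of apoptosis and of ERK signalling, was the only member over 2-fold higher in feeder cells of EV 1. It had 639, 645 and 1838 CPM there, a 2.86-fold higher value (interval 2.79 to 2.93) and a ratio above those of 99.3% of the genes compared. In germ cells it had 429, 425 and 728 (ratio 1.70, interval 1.49 to 1.94). With the same subtraction as for Fos, the germ log2 ratio of Ier3 was 0.10 instead of 0.77, and with the stricter germ rule it was 0.94. The gene was higher in feeder cells by edgeR (log2 -1.28 ± 0.18 SE, adjusted p = 1.0e-06), and in all 3 libraries.

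**Figure D3:**
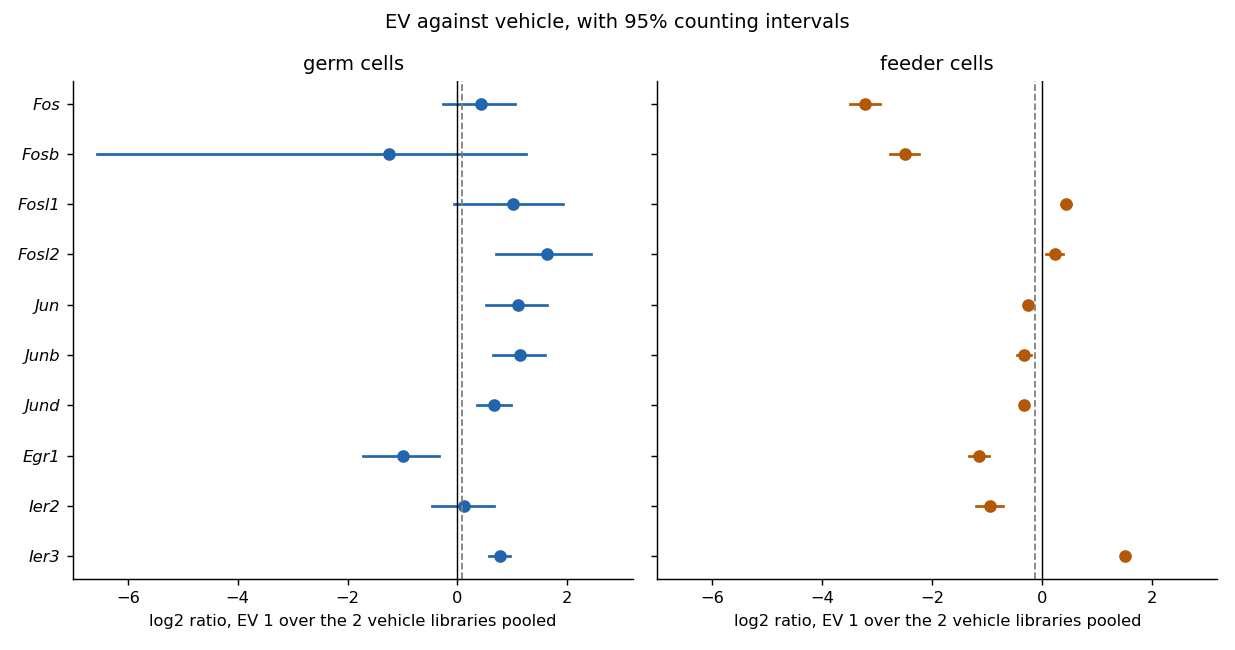
Ratio of EV 1 to the 2 pooled vehicle libraries for each gene (log2 axis) in germ and feeder cells, with 95% counting intervals; the dashed line is the median of all genes with at least 50 UMIs (0.09 in germ cells, -0.13 in feeder cells). In feeder cells Fos and Fosb lie far to the left and Ier3 to the right, and the wide germ interval of Fosb rests on 1 UMI.

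To see whether levels came from many cells or few, every cell was sampled down to 1000 UMIs, which left out 48 of 226 germ cells in EV 1 and 112 to 146 germ cells in each vehicle library. Fos was then seen in 10.2% and 11.3% of feeder cells in the vehicle libraries and in 1.38% (32 of 2322 cells, 95% Wilson interval 0.978 to 1.94) in EV 1. Without thinning these shares were 27.6%, 27.3% and 3.67%. Fewer feeder cells had a Fos UMI in EV 1, and those that had one held 1.03 UMIs on average, against 1.27 and 1.32 in the vehicle libraries.

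Ier3 went the other way, from 39.5% and 40.3% of feeder cells to 72.7% (70.9 to 74.5), and in germ cells from 30.6% and 30.9% to 47.2% (40.0 to 54.5). Egr1 was seen in 10.4% and 10.8% of germ cells in the vehicle libraries and in 4.49% (2.29 to 8.62) in EV 1, and in 8.20%, 8.63% and 3.92% of feeder cells. Junb stood at 5.35%, 5.50% and 11.8% (7.85 to 17.4) of germ cells. Fosb was seen in 0 of 178 germ cells of EV 1, which allows a share of up to 1.69% by the limit of 3 counts and 2.11% by the Wilson interval, against 0.868% and 0.688% in the vehicle libraries.

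As a guide to shares in a class that should lack a gene, Col3a1, a fibroblast collagen, was seen in 1.13%, 0.774% and 1.69% of germ cells and in 10.6% to 17.2% of feeder cells. Ddx4, a germ cell RNA helicase, was seen in 0.353%, 0.329% and 0.0431% of feeder cells and in 11.2% to 15.2% of germ cells. The germ shares of Fosb (0.868% and 0.688% in the vehicle libraries), Fosl1 (1.38% to 1.69%) and, in the vehicle libraries, Fosl2 (1.13% and 1.16%) were near those of Col3a1, while those of Fos (4.34% to 5.06%), Jun (4.78%, 4.38% and 6.74%), Jund, Egr1, Ier2, Junb and Ier3 lay above them. The Col3a1 level in germ cells was 5.72% and 4.46% of its feeder level in the vehicle libraries, below the single-marker medians of 10.3% and 10.0%. In feeder cells of vehicle 1 Jun (31.8%), Jund (36.5%) and Ier3 (39.5%) were seen more widely than Col3a1 (15.2%). Fos, Junb, Egr1 and Ier2 were seen less widely there. For Jun, Jund and Ier3 a share above that of Col3a1 thus does not tell expression from feeder RNA. For Jun the share also differs from its level, which did not exceed the joint fibroblast-marker shares in the vehicle libraries, and no reading of Jun in germ cells as background or as expression is made.

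**Figure D4:**
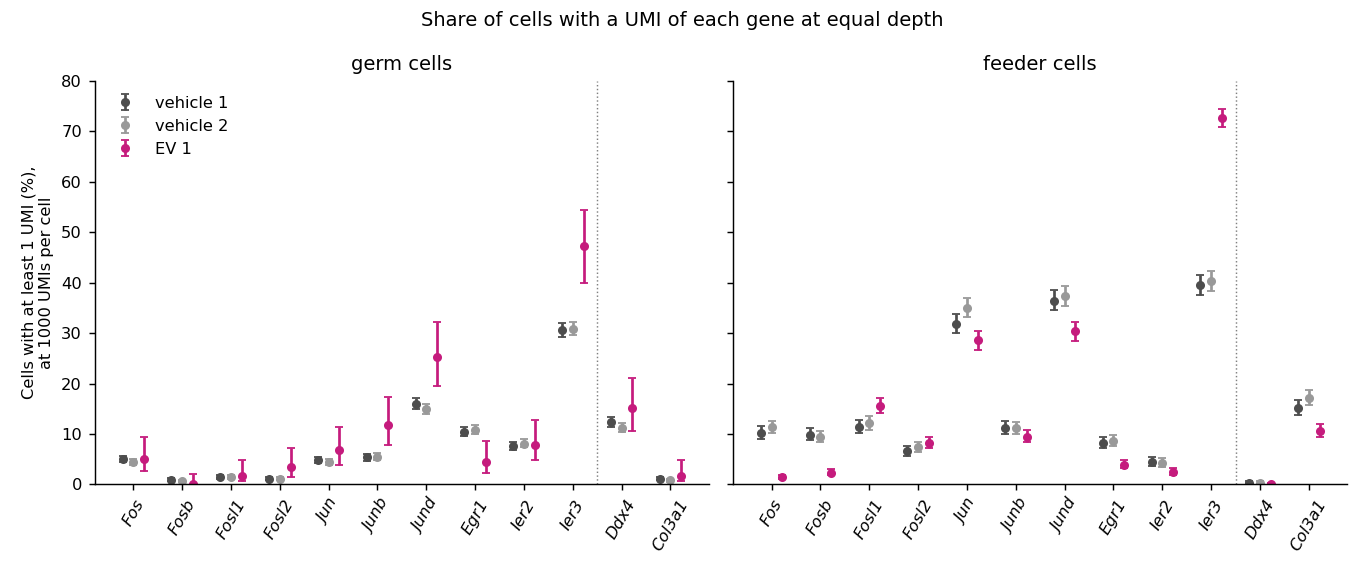
Share of cells with at least 1 UMI of each gene after thinning to 1000 UMIs per cell (linear axis, 95% Wilson intervals), with Ddx4 and Col3a1 right of the dotted line as guides to background in the class that should lack them. Ier3 was seen in 72.7% of feeder cells of EV 1, and Fos in 1.38%.

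Pairs of early genes were counted in the same cells of the vehicle libraries after thinning. Among feeder cells with a Fos UMI, 17.3% and 17.5% in vehicle 1 and 2 also had a Fosb UMI, against 9.03% and 8.38% of the feeder cells without one, and 46.3% and 50.5% had a Jun UMI against 30.2% and 33.0%. In germ cells the shares with an Egr1 UMI were 10.4% and 12.4% among cells with a Fos UMI, against 10.4% and 10.7% among those without. The shares with a Jun UMI were 7.55% and 6.44% against 4.64% and 4.29%. Among germ cells with an Egr1 UMI 11.7% and 10.4% had an Ier2 UMI, against 7.09% and 7.83% of the others. These are counts of cells within 2 libraries, given without a test. In EV 1 the pair Fos and Fosb was seen in 6 feeder cells and in 0 germ cells.

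Within germ cells of the vehicle libraries, the levels of 8 of 10 members were higher in both libraries in cells without a UMI of Mki67 or Top2a. The exceptions were Fosl1 and Fosl2, and 32.8% of all 13363 genes met the same condition. In feeder cells 7 of 10 members met it, all but Fosl1, Junb and Ier2, beside 30.3% of 12897 genes. In germ cells without such a UMI Ier3 had 648 and 637 CPM and in cells with one 356 and 359, Egr1 161 and 164 against 96.4 and 105, Junb 88.9 and 85.4 against 42.9 and 48.0, and Ier2 104 and 118 against 68.0 and 69.7. The same split by depth gave the same direction in both libraries for 9 of 10 members, all but Fosl1, beside 30.5% of genes, and for 4 of 10 members in feeder cells, beside 51.1%. In the shallower germ cells (below the median) Ier3 (549 and 526) and Egr1 (147 and 150) were likewise higher than in the deeper ones (365 and 371, 93.8 and 102). The part of depth in the split by cycling UMIs was not tested.

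The lower Fos and higher Ier3 levels in feeder cells of EV 1 were present in each split. Fos in EV 1 stood at 17.7% of the vehicle mean in feeder cells with a cycling UMI and at 10.4% in those without, at 10.2% in the deeper and 12.5% in the shallower feeder cells, and at 8.37% and 12.8% in those with more and with fewer mitochondrial UMIs than the median. Ier3 stood at 223% to 298% of the vehicle mean in the same 6 sets. Egr1 stood at 41.8% to 53.6% in 5 of them and at 92.8% in feeder cells with a cycling UMI. That last set held 55 cells in EV 1, with 4 UMIs of Fos (22.2 CPM, interval 6.06 to 56.9) and 13 of Egr1 (72.3 CPM, interval 38.5 to 124).

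The other genes of the pathway were read from lists of symbols, by the same ratio of EV 1 to the vehicle mean. The shares of all genes to set beside each list count are 11.5% over 2-fold higher and 7.03% lower in germ cells. In feeder cells they are 2.37% and 5%. Of 18 other early transcription factors, 15 passed 50 UMIs in germ cells (3 over 2-fold higher, and 1 lower apart from 2 with 0 UMIs in EV 1) and 16 in feeder cells (2 higher, 1 lower). The medians were -0.11 and 0.13 on the log2 scale, beside all-gene medians of 0.09 and -0.13. In feeder cells 1 of 16 was thus over 2-fold lower, as were Fos, Fosb and Egr1 among the members. Maff, a small MAF protein, was the highest in germ cells (24.7 CPM in EV 1, 4.70 ± 0.98 SD in the 2 vehicle libraries) and among the 2 highest in feeder cells (27.0 against 12.7 ± 2.33). Csrnp1 was the highest in feeder cells (4.73 against 2.09 ± 0.436).

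Klf6, a zinc finger factor, was the second highest in germ cells (18.5 from 6 UMIs, against 5.79 ± 0.333). The lowest in germ cells were Atf3 and Csrnp1, which had 0 UMIs in EV 1 and 6.13 and 4.20 CPM in vehicle. As 0 UMIs in these germ cells allow up to 9.25 CPM, no fold is given for them, and with such genes set at that limit the germ median is 0.33. In feeder cells Srf, which is on this list and on that of SRF and its cofactors and encodes serum response factor, the activator of Fos and Egr1 transcription, was lowest at 0.443 (3 UMIs) against 2.72 ± 0.588. Klf2 was next (26.0 against 39.8 ± 2.27).

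MAP kinase feedback regulators, the phosphatases and Sprouty proteins that MAP kinase signalling switches on to limit itself, had 14 of 14 genes past 50 UMIs in germ cells (2 over 2-fold higher, 2 lower) and 13 in feeder cells (1 higher, 0 lower). The medians were -0.07 and 0.25. In germ cells Dusp10 (18.5 against 6.13 ± 0.300) and Dusp2 (21.6 against 10.3 ± 2.13) were highest. Spry4 (3.08 from 1 UMI, against 17.0 ± 1.53) and Dusp6, an ERK phosphatase (6.17 from 2 UMIs, against 26.2 ± 0.562), were lowest. The ratio intervals of Dusp2 (0.838 to 4.43) and Spry4 (0.00454 to 1.01) include 1. In feeder cells Dusp5, another ERK phosphatase, stood at 33.7 against 14.0 ± 0.425 and Errfi1 at 108 against 59.3 ± 6.66, while Dusp1 (38.4 against 47.7 ± 3.68) and Dusp4 (13.7 against 15.4 ± 0.484) were lowest.

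The mRNA decay factors and growth brakes, 8 genes that all passed in both classes, gave 1 gene over 2-fold higher and 0 lower in germ cells and 0 either way in feeder cells. Gadd45g was highest in both (30.8 against 12.9 ± 0.644 in germ cells, 74.0 against 38.0 ± 3.84 in feeder cells). Zfp36, which encodes a protein that destabilises early mRNAs, followed in germ cells (6.17 against 4.60 ± 0.0694) and Btg1 in feeder cells (368 against 264 ± 10.3). The germ ratio interval of Zfp36, 0.160 to 4.98, includes 1. Zfp36l1 was lowest in germ cells (67.8 against 110 ± 0.646), before Zfp36l2 (55.5 against 78.9 ± 0.145). Btg2 was lowest in feeder cells (17.0 against 31.8 ± 1.37), before Zfp36l1 (74.4 against 110 ± 11.8).

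Other bZIP genes, whose products can pair with FOS or JUN, and upstream kinases with SRF cofactors moved little. Of 13 bZIP genes that passed in germ cells, 1 was over 2-fold higher and 1 had 0 UMIs in EV 1, and of 11 in feeder cells none crossed 2-fold. Batf had 0 UMIs in germ cells of EV 1 against 14.5 ± 0.682 in vehicle, where 0 allows up to 9.25, and Creb1 was next lowest (52.4 against 67.9 ± 3.85). Maf (9.25 from 3 UMIs, against 3.29 ± 0.278) and Atf6 (61.7 against 49.6 ± 3.91) were highest there. In feeder cells Atf5 (18.5 against 32.3 ± 3.54) and Maf (39.4 against 55.5 ± 5.69) were lowest, and Crem (16.7 against 14.8 ± 0.675) and Creb1 (53.6 against 50.2 ± 2.28) highest.

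Of 26 upstream kinase and SRF cofactor genes, all passed in germ cells (1 higher, 1 lower and 1 with 0 UMIs in EV 1) and 25 in feeder cells (0 higher, 1 lower, which was Srf). Elk3, an ETS factor that works with SRF, stood at 33.9 from 11 UMIs against 8.31 ± 0.807 in germ cells, and Nras at 98.7 against 66.4 ± 0.968. Elk1 had 0 UMIs in germ cells of EV 1 against 12.1 ± 0.172, and Srf 3.08 from 1 UMI against 9.73 ± 0.151. In feeder cells Map2k1 (140 against 105 ± 3.09) and Fgfr2 (112 against 85.2 ± 1.62) were highest, and Elk1 was next lowest after Srf (13.9 against 22.0 ± 0.445).

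Known targets of AP-1 and SRF had the highest medians of these 6 lists of other genes. Of 19 genes, 12 passed in germ cells (6 over 2-fold higher, 1 lower) and 18 in feeder cells (7 higher, 1 lower), with median log2 ratios of 0.91 and 0.74. Of all genes, 11.5% were higher and 7.03% lower in germ cells, and 2.37% and 5% in feeder cells. In feeder cells Hbegf, an EGF-receptor ligand, stood at 303 CPM against 64.6 ± 0.754 and Ccn2, a matricellular protein gene, at 48.9 against 9.99 ± 2.71. Mmp9, a gelatinase gene, was lowest in both classes, at 2.21 against 11.7 ± 2.30 in feeder cells and 3.08 from 1 UMI against 9.30 ± 0.0108 in germ cells. Mmp3 (135 against 199 ± 12.4) was next in feeder cells.

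In germ cells the highest targets were Cd44 (37.0 against 11.1 ± 3.17) and Timp1 (108 against 32.0 ± 8.84), and Hmox1 (89.4 against 93.0 ± 8.34) was second lowest. All 18 tested target genes were higher in feeder than in germ cells by edgeR with Benjamini-Hochberg adjustment, beside 41.7% of all genes. Fibroblast markers stood at 19.6% of their feeder level in germ cells of EV 1 against 13.4% and 12.0%, and their part in the germ values of the targets was not tested. The lists were drawn up with earlier results of these data known, and their counts are descriptions.

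**Figure D5:**
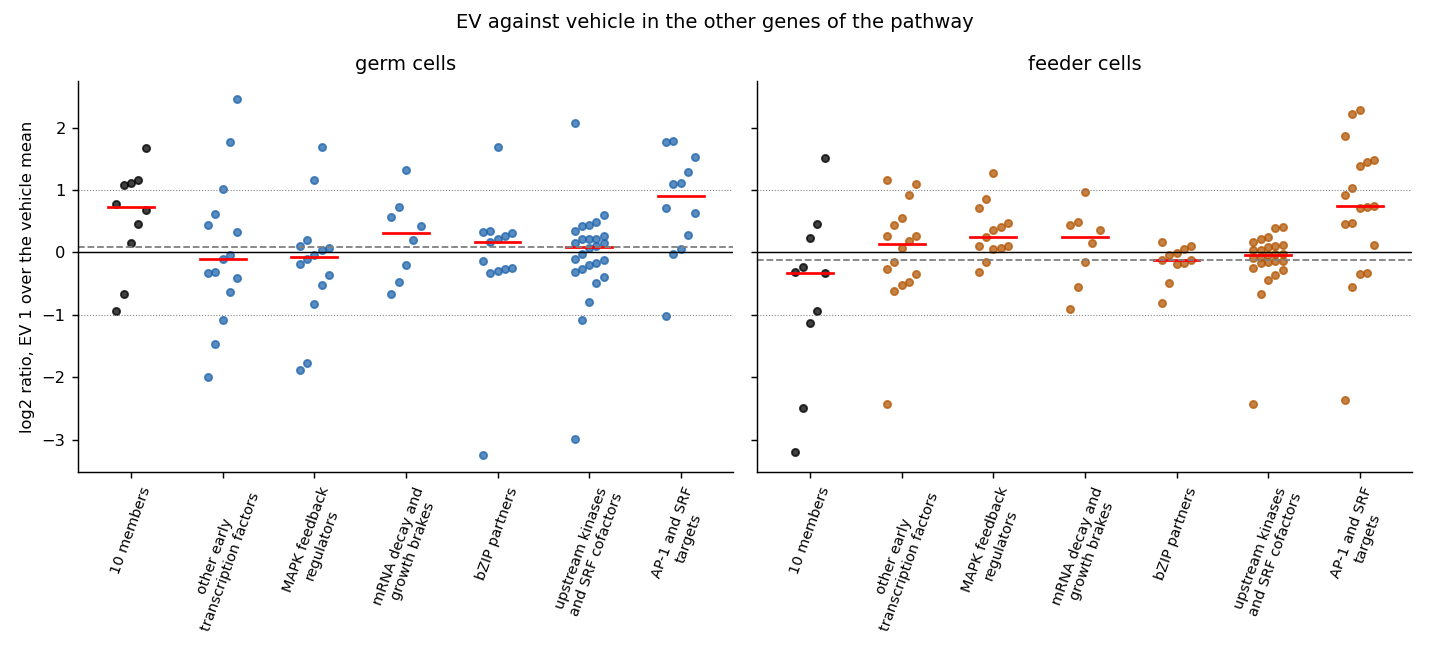
Log2 of the EV 1 level over the mean vehicle level for each gene with at least 50 UMIs in the class, by list; red bars are medians, the dashed line is the median of all genes, and dotted lines mark 2-fold. Of the 7 groups plotted, the 10 members being 1 group, AP-1 and SRF targets have the highest medians in both classes (0.91 in germ cells, 0.74 in feeder cells), and Fos and Fosb are the lowest points in feeder cells.

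Genes with patterns nearest to those of Fos, Jun and Egr1 were sought among 11336 genes, by the distance between log2 levels in the 6 class-by-library sums, each centred on its own mean. For Jun the nearest were Mbnl2 (distance 0.21), Lama4 (0.25) and Anxa4 (0.26). For Egr1 they were Cby1 (0.26), Dnajb5 (0.28) and Gm12610 (0.32). For Fos the nearest gene, Dyrk3, was at a distance of 1.10, before Zbtb11os1 (1.27) and Chil1 (1.33), so no gene compared came as near to Fos as those to Jun and Egr1.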

How the data were processed

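The authors counted unique molecular identifiers (UMIs) per gene and cell barcode with Cell Ranger 7.0.1 on mm10. The deposited counts are raw whole numbers, and the strand setting is not given in the sources used here. Counts of vehicle 1, vehicle 2 and EV 1 were used, and EV 2 was not analysed here.

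Following the study's filters, barcodes with more than 400 and fewer than 4000 genes and under 10% mitochondrial UMIs were kept. Scrublet (in scanpy 1.11.5) then removed the highest-scoring barcodes at 0.8% per 1000 cells. UMIs were summed per library and class, 0.5 UMI was added for log2 ratios, and genes with at least 50 UMIs over the 3 libraries were compared. EV against vehicle has no test, since 1 EV library had counts and the contrast chose the members. Counting intervals (95%) are exact Poisson for levels, exact binomial for ratios and Wilson for shares, and cover counting error only.

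Germ and feeder sums were compared with edgeR 4.0.16 in R 4.3.3 (quasi-likelihood test, TMM, library and class as terms, Benjamini-Hochberg adjustment over 15653 genes, threshold 0.05), and DESeq2 1.42.0 as an alternative. The SE given for edgeR is the absolute log2 difference divided by the square root of the test's F value, and was not fitted directly. The 2 classes of a library come from the same culture. Both scripts were tested on simulated data.

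Members and gene lists were chosen with earlier results of these data known. Besides the members, the text names the 2 highest and 2 lowest genes of each pathway list by EV 1 over the vehicle mean in each class, and the 3 nearest patterns for Fos, Jun and Egr1.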

Additional observations from a re-analysis of the deposited data

Results flagged for a closer look

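For 5 members EV 1 lay above both vehicle libraries in germ cells and below both in feeder cells. Taken singly, these conditions held for 44.9% of all genes in germ cells and for 57% in feeder cells. The share of all genes meeting both was not counted. The germ log2 ratio minus the feeder log2 ratio was 3.66 for Fos, 1.36 for Jun, 1.49 for Junb, 1.01 for Jund and 1.09 for Ier2. These differences were not tested, since 1 EV library had counts, and for Fos and Ier2 the interval of the germ ratio includes 1.

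Cells in neither class, used alone above only for Jun, made up 18.1% and 16.0% of the vehicle libraries and 42.8% of EV 1. Fosl1 had 66.3 and 74.6 CPM there in the vehicle libraries and 175 in EV 1, a ratio of 2.48 to the vehicle mean. Ier3 had 466 and 413 against 1120, a ratio of 2.55. In the same cells the 15 fibroblast markers summed to 919 and 956 CPM in the vehicle libraries and to 1640 in EV 1, and their part in both ratios was not tested.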

How the results depend on the processing

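No paired analysis was possible because EV and vehicle share only 1 replicate number with counts. The members' median log2 ratio in germ cells, 0.72 as reported, was 0.70 with TMM factors, 1.02 with 5 UMIs added, 0.77 with a minimum of 200 UMIs, 0.69 with doublets kept, 0.69 with all deposited barcodes, 0.68 as a mean over cells of counts per 10000, 0.51 with cells thinned to 1000 UMIs, 0.59 with the stricter class rule and 1.27 with feeder RNA subtracted. That subtraction left Fosb, Fosl1 and Jun at 0 in vehicle germ cells, and Fosb and Fosl1 at 0 in EV 1 as well. The log2 ratio of 4.97 for Fosb and Fosl1 there comes from the 0.5 UMI added alone, and the median of 1.27 depends on it. The number over 2-fold higher in germ cells, 4 as reported, was 2 when thinned, 1 under the stricter rule, 3 with doublets kept, 3 with all deposited barcodes and 5 with 5 UMIs added. It was 6 with feeder RNA subtracted, among them Fosb, Fosl1 and Jun. Of all genes, 1538 of 13363 were over 2-fold higher as reported. This was 1220 of 11247 when thinned, 1880 of 11909 under the stricter rule and 1669 of 13729 with doublets kept. It was 1687 of 13777 with all deposited barcodes, 5428 of 13363 with 5 UMIs added and 1929 of 13363 with feeder RNA subtracted. The number of members over 2-fold lower was 2 as a mean over cells, 2 when thinned and 1 with feeder RNA subtracted, instead of 0. Of all genes, 1052 of 13363, 1027 of 11247 and 1283 of 13363 were lower in these settings, against 939 as reported. The all-gene median in germ cells, 0.09 as reported, was 0.76 with 5 UMIs added. It was 0.01 with a minimum of 200 UMIs, 0.10 under the stricter rule and 0.03 with feeder RNA subtracted. In feeder cells the median, -0.32 as reported, was -0.20 with TMM factors, -0.19 with DESeq2 size factors, -0.32 with doublets kept, -0.33 as a mean over cells, -0.37 when thinned, -0.28 under the stricter rule and -0.32 with germ RNA subtracted, and -0.33 to -0.32 with either vehicle library left out. The all-gene median in feeder cells, -0.13 as reported, was -0.003 with TMM factors, 0.002 with DESeq2 size factors and -0.20 under the stricter rule. Over all kept cells the members' median, 0.13 as reported, was 0.32 with TMM factors, 0.32 with DESeq2 size factors, 0.15 with doublets kept, 0.22 as a mean over cells and 0.26 when thinned. The all-gene median there, -0.19 as reported, was -1.8e-05 with TMM factors and 0.007 with DESeq2 size factors. In feeder cells no member changed its sign or its side of 2-fold in 13 alternatives. The cause of these shifts was not tested.

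Between germ and feeder cells, Egr1 turned from -0.07 to 0.045 without the library term and to 0.30 with total UMIs and no factors, a setting chosen after seeing the data, which left 2 members higher in germ cells instead of 1. That setting called 7942 genes higher in germ and 5244 in feeder cells, against 6280 and 6529 as reported. DESeq2 gave 4947 and 5550, and lost the call for Fos. Without EV 1 edgeR called 7091 and 7104, without vehicle 1 4454 and 5079, and without vehicle 2 4334 and 4958. With 226 germ cells in EV 1, 0 UMIs of a gene allow up to 9.25 CPM, so germ differences of low genes were not detectable at this depth.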

Other observations

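Barcodes left out for mitochondrial UMIs at or above 10% were 341, 324 and 134 for vehicle 1, vehicle 2 and EV 1. Fosb had 184, 137 and 46.9 CPM in them, and Ier3 had 220, 248 and 743. Fos had 51.8 and 68.6 in the vehicle libraries and 0 UMIs in EV 1.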
